A study of Homo sapiens with 6 samples.

Results

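Human loci that carry an Ensembl gene identifier but no approved gene symbol were examined in the RNA bound by TIRR, a protein that binds the DNA repair factor 53BP1. A locus was included when the iCLIP tables gave it no name, or only its identifier, and its cDNA counts summed to at least 40 over the 4 iCLIP libraries. That rule gave 915 loci of 28231 gene rows with a count in at least 1 of these libraries. The loci were thus chosen by their summed iCLIP counts, so the level of these loci in iCLIP is a description and no finding. In all, 8744 unnamed loci had at least 1 count. At the edge, 22 loci had a sum of 40 and 13 loci just outside had a sum of 39. In the gene name table used, 903 of the 915 are still known by the identifier alone, and 12 now have a symbol.

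U2OS is a human osteosarcoma cell line. The iCLIP libraries came from U2OS cells of the genotype TIRR_FLAG, which stably carry a FLAG-tagged TIRR, and 2 libraries were from untreated cells and 2 from cells given 5 Gy of X-rays and left for 4 h. RNA-seq came from WT U2OS cells without the tagged protein, with 1 untreated library and 1 library after the same 5 Gy and 4 h, so the assays differ in genotype. The RNA-seq label gives X-rays, while the design text of the series speaks of gamma radiation for RNA-seq. Cells with an empty vector, which the design text names, were not analysed here, so no background of the FLAG pull-down could be set beside these values. The sources used here do not give the promoter that drives the tagged TIRR or whether the cells are 1 clone. Separate cultures are not stated for the replicates. The p-values set the difference between groups against the spread between these libraries. That spread may be technical, so the p-values do not extend to new cultures.

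In iCLIP, ultraviolet light links a protein to the RNA it touches, the complex is pulled down, and the linked fragments are copied into cDNA, each counted once for its gene. Ensembl gives an identifier to every gene model, and most models without a symbol are long noncoding RNAs, transcripts that are often spliced inefficiently, kept in the nucleus and present at a low level. Some are read-through transcripts, antisense transcripts or small RNA genes. Ionising radiation breaks DNA and activates p53, a transcription factor that raises CDKN1A and other genes, among them a few long noncoding RNAs.

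The iCLIP libraries held 583192 to 1155052 counts, of which 400723 to 799709 were in genes. The RNA-seq libraries held 23401311 and 23407174 counts, with 13015406 and 13023903 in genes. The labelled cell type was compared with markers in RNA-seq: the 6 mesenchymal markers together took 0.745% and 0.797% of the gene counts, although COL1A2 and TWIST1 had 6 counts or fewer in each library. The 4 epithelial markers took 0.05001% and 0.0473%, mostly from KRT8 and KRT18. Of the 3 blood markers 2 were listed, and these summed to 12 and 13 counts. The 2 neuron markers summed to 169 and 232 counts, mostly from RBFOX3 with 114 and 162. Of a list of 38 p53 targets, chosen with earlier results of these data known, 22 were tested in iCLIP and 18 rose. None fell, and the median log2 fold change was 1.75. Over all tested genes 2.43% rose. Some untested targets had 0 counts in every iCLIP library, among them PPM1D with 1164 and 2762 RNA-seq counts. The list of 23 G2 and mitotic genes, chosen likewise, had 14 tested members, of which 6 fell and none rose, with a median of −1.03. Over all tested genes 1.07% fell.

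Sequences could be shown for few of these loci, since 6 matched the RefSeq promoter table (GRCh38.p14, 250 bases before to 50 after the gene start). The pair below have the lowest and the highest iCLIP share relative to the RNA-seq share among the 5 matched loci with a count in untreated RNA-seq. The sixth, LINC03051, had 0 counts there. CG dinucleotides are in capitals, because clusters of them mark many promoters of broadly transcribed genes. TUBA1B-AS1 starts within chr12:49131356-49131655 on the plus strand. It is named as antisense to the alpha-tubulin gene TUBA1B, but the RefSeq models do not overlap and lie 211 bases apart. Its window reaches 250 bases before the start, so it may include part of TUBA1B and not describe TUBA1B-AS1 alone. PDE7B-AS1, antisense to a phosphodiesterase gene, starts within chr6:136072778-136073077 on the minus strand.
TUBA1B-AS1: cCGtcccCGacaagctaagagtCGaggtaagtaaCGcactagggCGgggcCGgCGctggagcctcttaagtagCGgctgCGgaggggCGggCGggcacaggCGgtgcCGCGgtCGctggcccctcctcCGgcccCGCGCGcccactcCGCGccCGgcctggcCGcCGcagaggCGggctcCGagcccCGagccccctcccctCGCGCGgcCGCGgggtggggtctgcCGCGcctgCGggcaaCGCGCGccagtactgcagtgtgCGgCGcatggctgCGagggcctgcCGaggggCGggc
PDE7B-AS1: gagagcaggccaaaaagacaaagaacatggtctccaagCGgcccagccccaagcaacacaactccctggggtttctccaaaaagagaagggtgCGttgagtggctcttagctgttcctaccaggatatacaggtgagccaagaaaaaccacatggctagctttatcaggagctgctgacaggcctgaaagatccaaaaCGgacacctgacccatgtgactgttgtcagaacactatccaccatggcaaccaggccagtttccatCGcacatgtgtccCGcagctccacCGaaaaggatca
The TUBA1B-AS1 window held 43 CG and was 78.0% G or C, and 4.98% of 35116 RefSeq promoters of this length hold at least as many CG. The PDE7B-AS1 window held 6 CG at 52.0% G or C, and 66.3% of promoters hold at least that number. The median promoter holds 14 CG, and 96.0% hold at least 1. CG reads the same on both strands. The RefSeq models are shorter than the gene lengths in the iCLIP tables (16258 against 60703 bases for TUBA1B-AS1 and 28976 against 233482 bases for PDE7B-AS1), so the start that the authors' annotation used may differ.

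The loci without a symbol took 7.71% and 7.64% of the gene counts in the untreated iCLIP libraries and 7.60% in each irradiated library. The group means were 7.67% ± 0.0539 and 7.60% ± 0.00352 (SD, n = 2 each). Both irradiated values lay below both untreated values, and an exact permutation test of 2 against 2 libraries cannot go below p = 0.333, so none was run. In RNA-seq the same loci took 1.80% (exact Clopper-Pearson 95% interval 1.79 to 1.80) and 1.77% (1.76 to 1.77) of gene counts, intervals that cover counting error only. The untreated iCLIP share was 4.27 times the untreated RNA-seq share, but 105 of the loci are in neither RNA-seq table and enter the iCLIP share alone. The 810 loci listed in RNA-seq took 6.75% ± 0.0579 of untreated iCLIP gene counts (SD, n = 2), 3.76 times their RNA-seq share. Held to the same minimum of 40 counts, 211 intergenic RNAs with a LINC number took 2.003% ± 0.0261 in untreated iCLIP and 0.162% in RNA-seq, a ratio of 12.3. The 280 named antisense or divergent transcripts took 1.94% ± 0.0239 and 0.925%, a ratio of 2.10. The other 7261 named genes took 82.5% ± 0.0167 and 60.1%, a ratio of 1.37. These class ratios carry the selection on iCLIP counts, which favours loci sparse in RNA-seq, so they are descriptions of the selected loci.

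Counts were spread over many loci. The summed count ran from 40 to 8468 with a median of 94, 480 loci had fewer than 100 counts, and 33 had at least 1000 counts. The 10 highest loci held 19.1% of the counts of the whole set in untreated cells, and the highest pair held 7.95%. Replicate libraries ranked the loci alike, with a Spearman rho across loci of 0.898 untreated and 0.854 irradiated; loci are not independent replicates.

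The highest was ENSG00000286481, with 2687 and 2570 counts in untreated and 1178 and 2033 in irradiated iCLIP libraries, or 0.332% ± 0.0157 of untreated gene counts (SD, n = 2). It spans 985191 bases and had 171 and 196 RNA-seq counts. Its change after irradiation did not pass the test (log2 fold change −0.08 ± 0.10 SE, adjusted p = 0.800 by edgeR's quasi-likelihood test). ENSG00000291025 followed with 2183 and 2215 untreated and 760 and 1558 irradiated counts (0.278% ± 0.0015); it is not listed in RNA-seq. ENSG00000286192 had 964 and 1411 against 809 and 899, and its untreated libraries differed more (0.150% ± 0.0376). Neither of these passed the test with all 4 libraries (log2 fold change −0.32, adjusted p = 0.172, and 0.23, adjusted p = 0.601, by edgeR). Single libraries decided these values. Without irradiated replicate 2 both passed, with adjusted p of 0.00477 and 0.00184. The direction of ENSG00000286192 turned to −0.09 without irradiated replicate 1 and to −0.01 without untreated replicate 1.

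**Figure D1:**
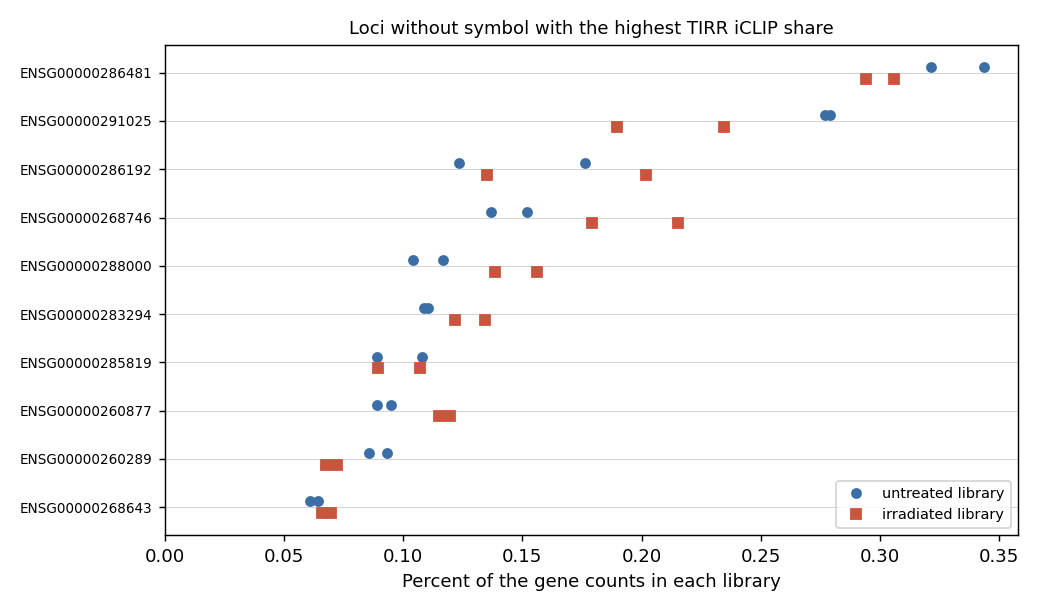
Share of gene counts (percent, linear axis) of the 10 loci without a symbol that were highest in untreated iCLIP, with 1 point per iCLIP library in untreated and irradiated cells. ENSG00000286481 is highest at 0.332% untreated, and ENSG00000268746 and ENSG00000288000 are the loci among the 10 that rose after irradiation.

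The remaining 7 of the 10 were lower. ENSG00000268746 had 1071 and 1216 untreated and 862 and 1192 irradiated counts, and ENSG00000288000 had 914 and 833 against 556 and 1038. These are the ones of the 10 that rose, and they are described with the other risen loci. ENSG00000283294 had 849 and 882 against 488 and 892, ENSG00000285819 had 844 and 713 against 359 and 713, and ENSG00000260877 had 698 and 758 against 479 and 764. ENSG00000260289 had 730 and 685 against 272 and 480, and ENSG00000268643 had 476 and 515 against 265 and 463. The call of ENSG00000260877 also turned on 1 library: its log2 fold change was 0.42 with adjusted p = 0.0615 by edgeR, and 0.46 with 0.0191 without irradiated replicate 2. ENSG00000285819 had a log2 fold change of 0.07 (adjusted p = 0.876), which was −0.06 without irradiated replicate 2 and −0.07 without untreated replicate 2.

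Most of the loci were long. The length in the iCLIP tables ran from 49 to 1368126 bases with a median of 69732, close to the 64709 of all 8667 genes with at least 40 counts. In all 358 loci were at least 100 kb long, 49 were at least 500 kb, and 18 were under 1 kb. The length column counts the whole locus, introns included where the model has any, so a value per kb averages over sequence that a spliced RNA lacks. Per kb of this length the untreated median was 0.616 counts over 910 loci of at least 200 bases, beside 0.734 over 8623 genes at the same minimum. The middle 90% lay between 0.0435 and 10.4 counts per kb, and 49 loci reached 10. Across loci, Spearman's rho with length was 0.204 for the count and −0.809 for counts per kb, and the minimum of 40 counts sets the lower edge of the latter.

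Short loci led per kb. ENSG00000289915, of 757 bases, had 213 and 242 untreated and 124 and 207 irradiated counts, which gave 300.5 per kb untreated. ENSG00000270022, of 664 bases, had 173 and 171 against 118 and 187, or 259 per kb. Neither is listed in RNA-seq. ENSG00000287979 (1312 bases) gave 145 per kb, ENSG00000289747 (867 bases) 96.9 and ENSG00000248103 (2278 bases) 83.2. ENSG00000250992 was longer, at 6413 bases, and still gave 77.0 per kb from 498 and 489 untreated and 196 and 399 irradiated counts. The last 4 of the 10 were ENSG00000259001 with 52.5, ENSG00000259945 with 47.1, ENSG00000285819 with 45.7 and ENSG00000249086 with 44.0 per kb. The exons and introns of these loci were not analysed here.

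**Figure D2:**
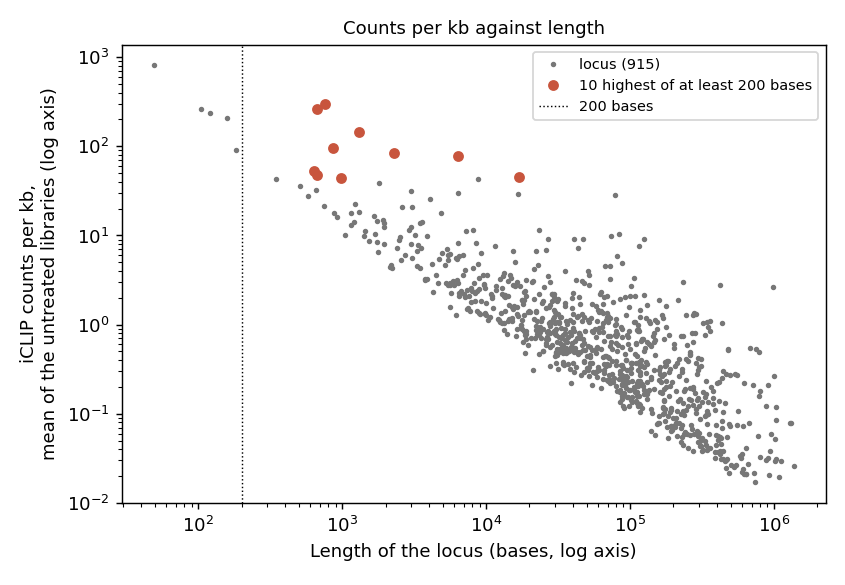
Untreated iCLIP counts per kb (log axis) against locus length in bases (log axis) for the 915 loci without a symbol, 1 point per locus, with a dotted line at 200 bases and the 10 highest beyond it in red. Counts per kb fall with length (Spearman rho −0.809), along the lower edge that the minimum of 40 counts sets, and ENSG00000289915 is highest of the red points at 300.5 per kb.

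The shortest 5 loci, under 200 bases, were left out of the values per kb. ENSG00000275110 (49 bases) had 35 and 44 untreated and 17 and 22 irradiated counts, and ENSG00000277599 (159 bases) had 29 and 37 against 12 and 24. ENSG00000278050 (105 bases) had 17 and 38 against 11 and 12, and ENSG00000290039 (182 bases) had 22 and 11 against 13 and 8. None of these 4 is listed in RNA-seq. ENSG00000278144 (120 bases) had 28 and 28 against 11 and 26, and it is listed there with 61 and 41 counts. Loci this short may have near-identical copies, and the sources used here do not say how the authors' counting treated reads that match several places.

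Most of the loci were sparse in RNA-seq. Of the 915, 810 are listed in at least 1 RNA-seq library and 105 in neither. Of those 105, 82 have an identifier numbered above the highest in the RNA-seq tables, and the length differs between the assays for 377 of the 810, so the annotations were not the same. In untreated RNA-seq the 810 had a median of 55 counts, 170 had fewer than 10 and 49 had at least 1000. For the 422 loci with at least 50 counts, the untreated iCLIP share over the RNA-seq share (prior count 0.5) had a median of 3.25-fold, or 1.70 on the log2 scale. In 331 of them, 78.4%, iCLIP was the higher share. Over all 7288 genes with at least 40 iCLIP and 50 RNA-seq counts the median was 1.63-fold, and 65.5% were above 1. The median log2 ratio was 2.97 for 89 numbered LINC genes, 1.34 for 181 antisense or divergent transcripts and 0.62 for 6596 other named genes. The median depended on the RNA-seq minimum: it was 2.73 with at least 10 RNA-seq counts and 0.41 with at least 200. A locus with few RNA-seq counts and at least 40 iCLIP counts has a high ratio by the rule itself.

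The ratio ranged widely. In 181 of the 422 loci the iCLIP share was at least 4 times the RNA-seq share, and in 13 the RNA-seq share was at least 4 times the iCLIP share. ENSG00000268746 was highest, at 259-fold, with 72 and 56 RNA-seq counts beside its 1071 and 1216 untreated iCLIP counts. ENSG00000286481 followed at 252-fold and ENSG00000283294 at 186-fold. The next were ENSG00000232855 with a log2 ratio of 6.52, ENSG00000260877 with 6.17, ENSG00000233005 with 6.07, ENSG00000258081 with 5.85 and ENSG00000253642 with 5.74. PDE7B-AS1, with a ratio of 75.3, had 189 and 155 untreated and 90 and 195 irradiated iCLIP counts beside 37 and 30 in RNA-seq, so it had fewer than 50 and is outside the 422.

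At the other end, ENSG00000230021 had 13 and 12 untreated and 11 and 13 irradiated iCLIP counts against 12674 and 8469 in RNA-seq, an RNA-seq share 59.3 times the iCLIP share. TUBA1B-AS1 had 52 and 48 against 20 and 30 in iCLIP, and 24451 and 23832 in RNA-seq, 29.4 times the iCLIP share. ENSG00000260342 was at 17.0, ENSG00000251357 at 9.53 and ENSG00000284512 at 8.74 in the same direction. These loci took a larger share of the RNA-seq gene counts than of the iCLIP gene counts. How reads that match several places were counted is not stated, so these counts may include reads from elsewhere. Whether the counting used strand is not stated, so reads of TUBA1B-AS1 and of TUBA1B, an alpha-tubulin gene 211 bases from it in RefSeq, cannot be told apart where the models overlap. TUBA1B itself had 7 and 5 untreated and 0 and 5 irradiated iCLIP counts and 19517 and 20491 RNA-seq counts.

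**Figure D3:**
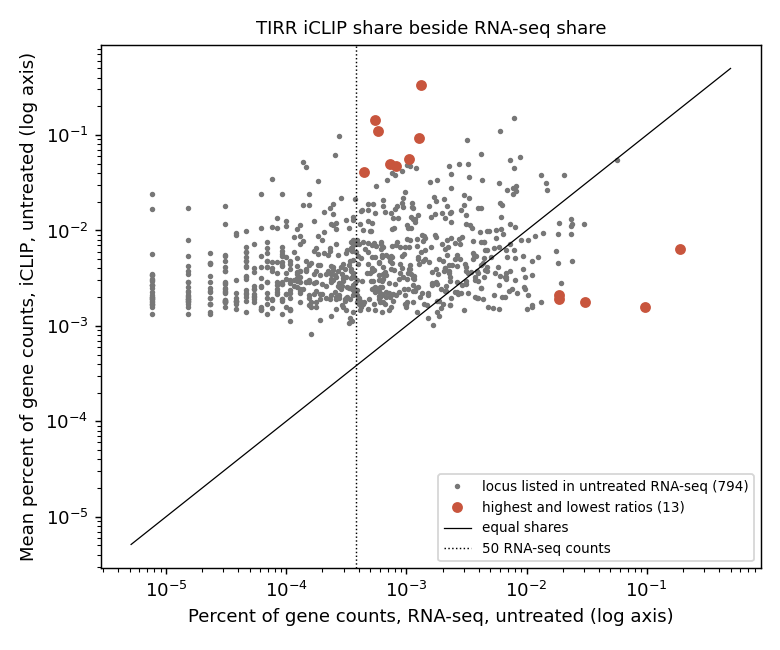
Untreated iCLIP share of gene counts (percent, log axis, mean of 2 libraries) against untreated RNA-seq share (percent, log axis, 1 library) for the 794 loci without a symbol listed in untreated RNA-seq. A dotted line marks 50 RNA-seq counts, and red marks the 8 highest and 5 lowest ratios among loci with at least 50. Loci with fewer than 50 counts were not ranked, and some of them have higher ratios. Points above the line of equal shares are higher in iCLIP, with ENSG00000268746 and ENSG00000286481 far above it and ENSG00000230021 and TUBA1B-AS1 far below.

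After irradiation, few of these loci changed in iCLIP. The fit over 9230 genes called 323, or 3.50%, at an adjusted p of 0.05 (edgeR's quasi-likelihood test, Benjamini-Hochberg adjustment), of which 2.43% were rises and 1.07% falls. Of 910 tested loci without a symbol, 24 were called (2.64%), 16 of them rises (1.76%) and 8 falls (0.879%). These shares are near the background. Scaling by library totals gave 9 rises and 10 falls. With 1 library left out the number of calls lay between 13 (without untreated replicate 1) and 35 (without irradiated replicate 1). At an unadjusted p under 0.05 there were 124. DESeq2 called 5 of the 275 loci to which it gave an adjusted p, and it gave none to the other 635. For comparison, 16 of 208 numbered LINC genes (7.69%), 13 of 279 antisense or divergent transcripts (4.66%) and 263 of 7247 other named genes (3.63%) were called; whether the classes differ was not tested. In bulk libraries, fewer cells with an RNA and less RNA per cell cannot be told apart, nor in iCLIP more RNA and more binding per RNA.

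The loci were centred near no change. The median log2 fold change was 0.01, beside 0.00 over all tested genes, and 5% to 95% of the loci lay between −0.73 and 0.75, beside −0.70 to 0.76. Both irradiated values lay above both untreated ones for 204 loci (22.4%, beside 22.0% of all genes) and below for 208 (22.9%, beside 22.0%). By length, 4 of 213 tested loci under 20 kb, 11 of 340 from 20 to 100 kb and 9 of 357 longer ones were called.

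**Figure D4:**
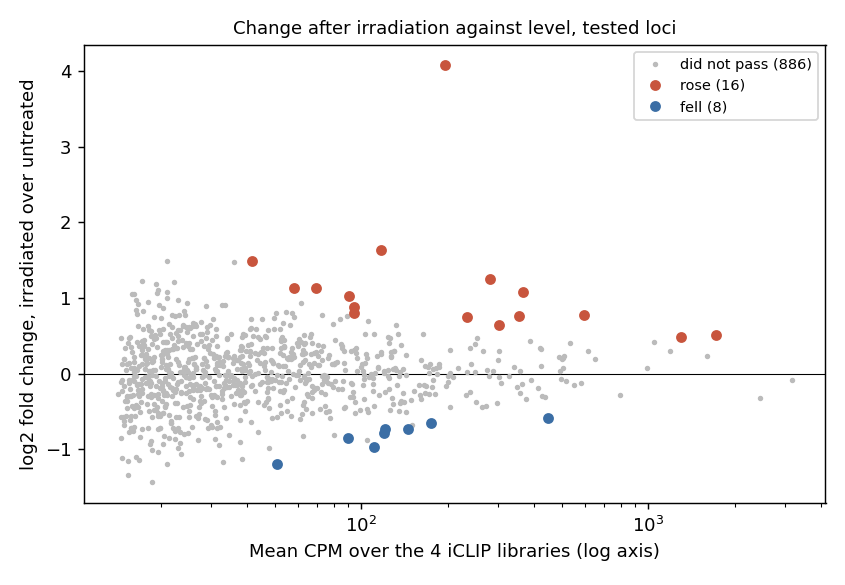
Log2 fold change of iCLIP counts, irradiated over untreated, against the mean CPM of the 4 libraries (log axis; CPM are TMM-scaled counts for a library of 1000000 gene counts) for the 910 tested loci without a symbol, with rises in red and falls in blue. The 16 rises and 8 falls stand on either side of a cloud centred near 0.01.

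Of the 16 risen loci, 8 rose at least 2-fold. The clearest were 4 that kept an adjusted p of at most 0.05 in all 11 other settings tried. CHD9NB (ENSG00000277639), now named as a neighbour of CHD9 and known in RefSeq also as PR-lncRNA-1, a p53-regulated long noncoding RNA, had 44 and 49 untreated and 64 and 124 irradiated counts. In CPM, counts scaled by TMM to library totals of 1000000 gene counts, it went from 57.4 ± 3.36 to 177 ± 17.8 (SD, n = 2), a 3.11-fold rise (log2 fold change 1.64 ± 0.20 SE, adjusted p = 5.14e-05 by edgeR). ENSG00000286811, a locus of 41866 bases, had 126 and 142 against 174 and 227 counts, or 165 ± 11.1 and 397 ± 70.9 CPM, a 2.37-fold rise (adjusted p = 9.86e-05). It had 1 and 0 counts in RNA-seq, so its rise could not be set beside a change in RNA level. ENSG00000248103 had 209 and 170 against 201 and 308 counts, or 234 ± 38.2 and 494 ± 32.4 CPM, a 2.10-fold rise (adjusted p = 0.000248), with 20 and 17 RNA-seq counts. ENSG00000285733, of 274168 bases, had 348 and 363 against 293 and 488 counts, or 439 ± 5.41 and 750 ± 4.94 CPM, a 1.71-fold rise (adjusted p = 0.00109). In each of the 4 the untreated and irradiated CPM did not overlap, which held for all 24 called loci. The calls were made on these same counts, so the lack of overlap adds no support to them. Among all tested genes, both irradiated values lay above both untreated ones in 22.0% and below in 22.0%.

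The fitted fold was highest for ENSG00000280441, and it came from 1 library: the counts were 11 and 21 untreated and 274 and 23 irradiated, or 19.7 ± 8.39 and 370 ± 473 CPM. Its log2 fold change of 4.07 (adjusted p = 0.00906) was 0.83 with adjusted p = 0.371 by edgeR without irradiated replicate 1, and 5.14 without irradiated replicate 2. ENSG00000253824 also depended on the irradiated libraries. It had 16 and 17 against 35 and 23 counts and a log2 fold change of 1.49 (2.80-fold, adjusted p = 0.0459). That change was 0.78 (adjusted p = 0.409) without irradiated replicate 1 and 2.13 without irradiated replicate 2. ENSG00000267879 had 37 and 33 against 40 and 58 counts and rose 2.18-fold (adjusted p = 0.00954, and 0.0859 without untreated replicate 2). ENSG00000188897 had 34 and 23 against 39 and 40 and rose 2.18-fold (0.0407, then 0.168 without irradiated replicate 1 and 0.253 without untreated replicate 2). ENSG00000230074 had 57 and 41 against 41 and 89 and rose 2.03-fold (0.0150, then 0.120 without irradiated replicate 2 and 0.182 without untreated replicate 2). These 5 calls rested on fewer than 100 counts in most libraries, and each ended without at least 1 library.

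The other 7 risen loci changed less than 2-fold. With DESeq2 and with the replicate number as a block, ENSG00000259316 was the only one of these to keep its call. ENSG00000259316 had 225 and 199 untreated against 195 and 258 irradiated counts and rose 1.69-fold (adjusted p = 0.00679 by edgeR, and 0.126 without untreated replicate 2). ENSG00000289007 rose 1.84-fold (0.0212), ENSG00000276241 1.74-fold (0.0345) and ENSG00000260851 1.67-fold (0.0318). Of the 11 other settings, these kept their calls in 5, 2 and 5, in that order. The first had adjusted p of 0.178, 0.170 and 0.077 without irradiated replicate 2, untreated replicate 1 and untreated replicate 2, the second 0.178, 0.3197 and 0.106, and the third reached 0.545 without untreated replicate 1. ENSG00000287979, the short locus high in counts per kb, had 205 and 175 against 161 and 213 counts and rose 1.56-fold (0.0292, then 0.0759, 0.0591 and 0.362 without irradiated replicate 1, untreated replicate 1 and untreated replicate 2). The 2 most abundant risen loci moved least: ENSG00000268746 went from 1411 ± 102 to 2020 ± 278 CPM, 1.43-fold (adjusted p = 0.0235, and 0.293 without untreated replicate 1), and ENSG00000288000 from 1080 ± 89.6 to 1509 ± 112 CPM, 1.40-fold (0.0282, then 0.106 and 0.407 without untreated replicate 1 and 2).

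**Figure D5:**
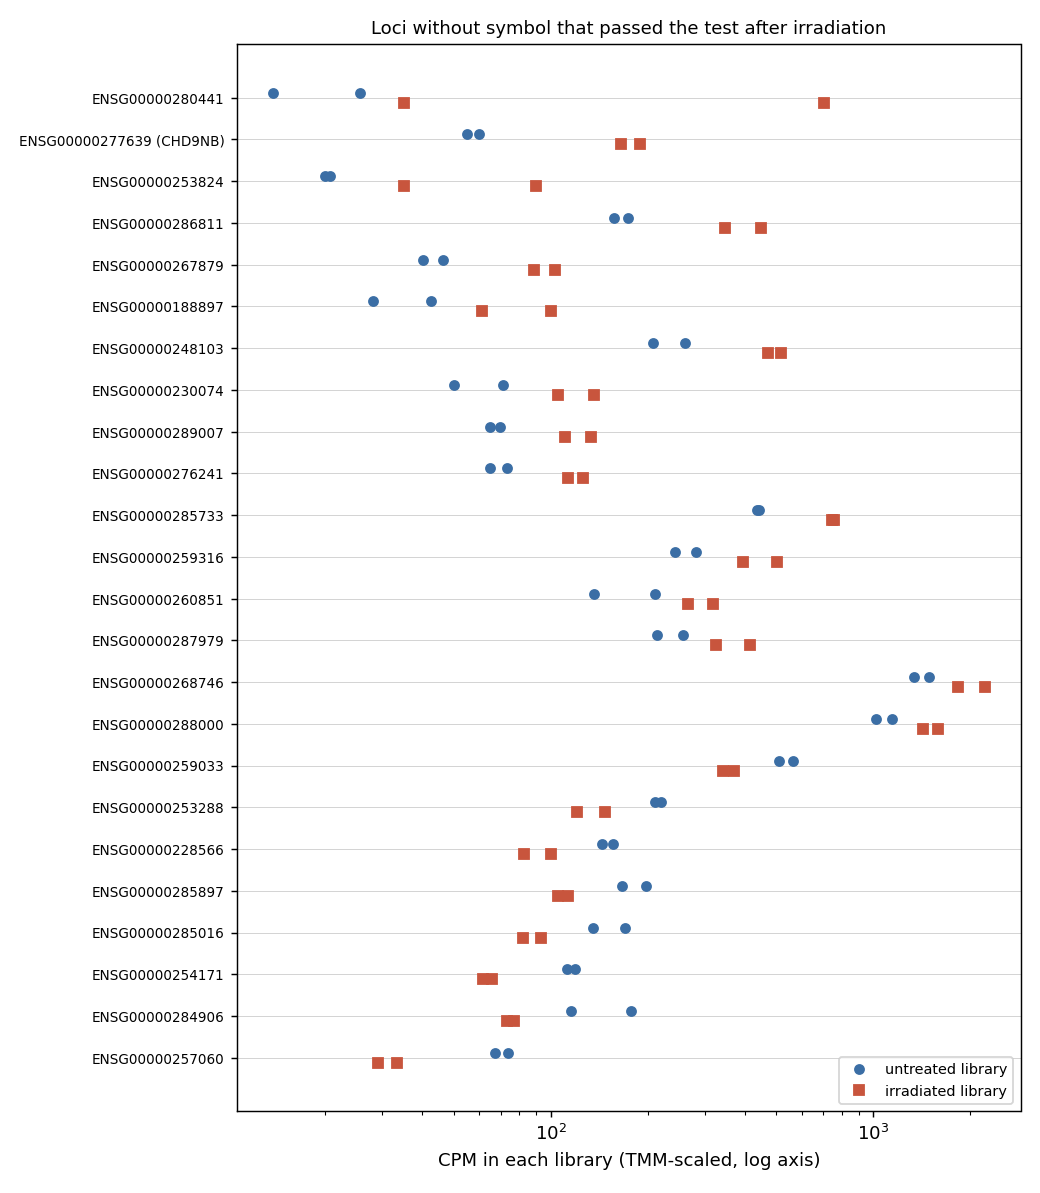
CPM (TMM-scaled counts for a library of 1000000 gene counts, log axis) in each of the 4 iCLIP libraries for the 24 called loci without a symbol, untreated and irradiated. The groups do not overlap in any of the 24, which were called on these same counts, so this is no further support. The irradiated libraries of ENSG00000280441 differ most from each other (274 and 23 counts).

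Of the 8 falls, 1 reached 2-fold. ENSG00000257060 had 59 and 55 untreated and 13 and 19 irradiated counts, from 70.4 ± 4.73 to 31.3 ± 3.09 CPM, a log2 fold change of −1.19 ± 0.27 SE (adjusted p = 0.0180 by edgeR, then 0.116 without irradiated replicate 2 and 0.0995 without untreated replicate 1). ENSG00000284906 had 142 and 95 against 30 and 48 counts and changed by −0.97 (0.0241, and −0.64 with 0.416 without untreated replicate 1). In RNA-seq it went from 224 to 119 counts, a ratio of 0.525 (exact conditional 95% interval 0.417 to 0.659, counting error only). ENSG00000259033, the most abundant of the 8, had 451 and 418 against 133 and 242 counts, from 537 ± 38.2 to 356 ± 19.9 CPM (−0.59, adjusted p = 0.0205, then 0.314 and 0.0744 without untreated replicate 1 and 2), and 956 and 944 RNA-seq counts. The other 5 fell by 0.66 to 0.85 on the log2 scale: ENSG00000254171, ENSG00000285016, ENSG00000285897, ENSG00000228566 and ENSG00000253288. ENSG00000228566 spans 1028783 bases and had 115 and 128 against 39 and 54 counts. ENSG00000285897 had 158 and 136 against 44 and 69 counts in iCLIP, with an adjusted p of 0.0281 (then 0.312 without untreated replicate 1 and 0.107 without irradiated replicate 2), and its RNA-seq ratio was 0.817 (0.737 to 0.906). Without untreated replicate 1 none of the 8 passed, with adjusted p from 0.0995 to 0.416, and 1 other locus was called as a fall. Other libraries also ended calls: ENSG00000254171 reached 0.0803 without irradiated replicate 2 and 0.0945 without untreated replicate 2, ENSG00000228566 reached 0.272 and 0.232 without the same libraries, and ENSG00000253288 reached 0.0913 without irradiated replicate 1 and 0.194 without untreated replicate 2.

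CHD9NB lies at chr16:53035690-53052897 (GRCh38.p14), 2094 bases from CHD9, a chromatin remodelling gene, and is 17208 bases long in the files and in RefSeq, which lists it as protein coding. In RNA-seq it had 50 counts untreated and 78 irradiated, a ratio of 1.54 (1.07 to 2.25). CHD9 had 192 and 185 untreated and 142 and 212 irradiated iCLIP counts (log2 fold change 0.56, adjusted p = 0.0393 by edgeR) and in RNA-seq 648 and 847 counts. Its call ended without untreated replicate 1 (adjusted p = 0.271), untreated replicate 2 (0.373) or irradiated replicate 1 (0.0723), and also with DESeq2 (0.255) and with library totals (0.0820). The CHD9 call was lost too with no filter on low counts (adjusted p = 0.0944 by edgeR). It was also lost with the replicate number as a block (0.111) and with upper-quartile scaling (0.0613). Both neighbours had higher scaled counts after irradiation in iCLIP and in RNA-seq.

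Of the 12 loci that now have a symbol, CHD9NB was the one called. A single RefSeq entry was found for 10 of them, and LNCTSI and LINC03059 do not. PDE7B-AS1 overlaps PDE7B, which had 14 and 12 untreated and 4 and 5 irradiated iCLIP counts, far fewer than the antisense locus, whose log2 fold change was 0.34 (adjusted p = 0.365 by edgeR). Whether the counting used strand is not stated, so counts in the shared sequence may not come from the antisense RNA. This limit also holds for the ratio of PDE7B-AS1 to its RNA-seq share. IFNAR2-IL10RB, a read-through of the interferon receptor gene IFNAR2 and the interleukin receptor gene IL10RB at chr21:33229938-33297221, had 61 and 60 untreated and 25 and 43 irradiated iCLIP counts and 544 and 508 in RNA-seq. The genes it spans had fewer in iCLIP: IFNAR2 had 7 and 8 against 4 and 5, and IL10RB 2 and 1 against 0 and 1. The locus shares sequence with both, so how the authors' counting divided reads among them is uncertain. TCF12-DT, which overlaps the transcription factor gene TCF12, is 59342 bases long in the iCLIP tables and 3710 in RNA-seq, so its levels in the assays do not cover the same sequence. LNCTSI had 14 and 20 against 12 and 22 iCLIP counts, and in RNA-seq it had 13 and then 33, for a ratio of 2.51 (1.29 to 5.20).

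RNA-seq, with 1 library per condition, allowed ratios without a replicate check. Of 325 loci with at least 100 counts in 1 of the RNA-seq libraries, 3 were at least 2-fold higher after irradiation with an interval beyond 1.5-fold and none was lower by that rule; among 12977 genes 0.863% were higher and 0.624% lower. The median ratio was 1.02, beside 0.998 over all genes, and 5% to 95% lay between 0.749 and 1.43. ENSG00000223725 went from 99 to 239 counts, a ratio of 2.39 (1.88 to 3.05). ENSG00000283294 went from 76 to 161 (2.09, 1.59 to 2.79) and ENSG00000286162 from 77 to 162 (2.08, 1.58 to 2.77). None of the 3 was called in iCLIP, with log2 fold changes of 0.34, 0.30 and 0.03 and adjusted p of 0.641, 0.225 and 0.988 by edgeR.

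The called iCLIP loci were set beside RNA-seq where they had at least 50 untreated counts there. Among 8 risen loci the RNA-seq ratio ran from 0.769 to 1.54 with a median of 1.12, 6 were above 1, and 2 had an interval above 1 (CHD9NB and ENSG00000285733, at 1.28 with 1.04 to 1.59). Among 5 fallen loci it ran from 0.525 to 1.01 with a median of 0.864, and 2 had an interval below 1. The share of all genes with a ratio or interval beyond 1 was not computed, so these counts do not measure agreement between the assays. Over the 308 loci that were tested in iCLIP and had at least 100 untreated RNA-seq counts, Spearman's rho of the iCLIP and RNA-seq changes was 0.205. The assays share no library, loci are not independent, and the RNA-seq change rests on 1 library per condition.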

How the data were processed

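Each deposited table gives, per the file headers, a cDNA count (whole numbers, unscaled), that count as a percent of the library's cDNA and a length for every gene. The percent column was not used. Per the submitters' processing notes, hg38 was the build and kallisto 0.44.0 was used for RNA-seq. Aligner, duplicate removal, annotation release and strand use: not given in the sources used here.

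The intergenic row (30.6% to 31.3% of iCLIP and 44.4% of RNA-seq counts) entered neither library sizes nor tests. The fit was edgeR 4.0.16 (R 4.3.3, limma 3.58.1), quasi-likelihood F test, TMM scaling and filterByExpr over all genes, with Benjamini-Hochberg adjustment at 0.05. It was tested on simulated data. RNA-seq ratios carry exact conditional 95% intervals. Alternatives included DESeq2 1.42.0. Shares, ratios and figures came from Python 3.11.15 with pandas 2.3.3, numpy 2.4.6, scipy 1.17.1 and matplotlib 3.10.9. Loci were named by rank: the 10 highest shares, up to 15 calls per direction, the 10 highest per kb, the 8 highest and 5 lowest ratios, and those past the RNA-seq rule. The ratios were ranked among loci with at least 50 untreated RNA-seq counts. PDE7B-AS1, the short loci and the loci with a symbol were added after their values were seen. Members and lists were chosen with earlier results of these data known.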

Additional observations from a re-analysis of the deposited data

How the results depend on the processing

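The calls among loci without a symbol, 24 with 16 rises and 8 falls, moved with several settings. DESeq2, which gave 275 of the 910 loci an adjusted p, called 5, with 5 rises and 0 falls (14 falls at an unadjusted p under 0.05). Scaling by library totals gave 9 rises. A fit with the replicate number as a block called 11, with 10 rises and 1 fall. The correlation of same-numbered libraries' deviations from their group means was −0.0935, and 0.0935 for crossed numbers. With 2 libraries per group both pairs give the same value by construction, so it is a single value. The labels name no shared batch. Thinning to equal depth called 10, with 8 rises and 2 falls. Leaving out each library in turn gave 13 to 35 calls, 11 to 21 rises and 1 to 14 falls.

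No RNA-seq locus was higher by the size rule at 500 counts (0 in place of 3). The median log2 iCLIP to RNA-seq ratio was 1.67 with a prior count of 0, 1.78 with 2, 1.68 to 1.69 with 1 untreated library left out, 2.73 at a minimum of 10 counts and 0.41 at 200. The median counts per kb was 0.59 to 0.62 with 1 untreated library left out. None of the 24 called loci changed sign in any setting. ENSG00000286192 and ENSG00000285819, which were not called, changed sign when 1 library was left out. Of single values of called loci, 165 kept and 95 lost their call over the settings; the cause was not tested. The counts of 480 loci summed to less than 100 over the 4 libraries, which limits the precision of their fold changes.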
